A study of Saccharomyces cerevisiae with 66 samples.

Results

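The 54 genes described here encode factors that build the ribosomal subunits of budding yeast (Saccharomyces cerevisiae) without staying in them. They were chosen by name from the 6171 gene lines of a table of read counts, and all 54 were found. No rule on a measured value was used, though earlier results of these data were known. Transcript levels were measured by RNA sequencing of poly(A)-selected, strand-specific libraries in diploid MATa/alpha cells that had been moved to sporulation medium and were early in meiosis. The cells carried a degron system, in which the plant hormone auxin (indole-3-acetic acid, IAA) lets a TIR ubiquitin ligase mark a tagged protein for destruction. The 22 groups held 3 libraries each, 66 in all, and combined 11 strains with IAA or its solvent DMSO.

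The strains with a targeted protein were POP2, NOT5 and CAF40 (subunits of the CCR4-NOT deadenylase), DCP2 (the decapping enzyme), LSM1 and PAT1 (decapping activators), PAB1 (the poly(A)-binding protein), RAT1 (the nuclear 5′ to 3′ exonuclease), XRN1 (its cytoplasmic counterpart) and RRP6 (a nuclear exosome nuclease). The strain called WT had the ligase and no tagged target, and is the reference for the other 10. All groups share the alleles lys2, ura3, ho::LYS2, trp1::hisG and leu2::hisG and an insertion at his3 named p550, whose number runs up by 1 per library within the WT and CAF40 entries. The genotype entries give 9 of the 10 targets a 3V5-IAA7 tag with a KanMX marker, and give CAF40 none, so that the CAF40 groups rest on the sample title. IAA at 500 µM was added together with copper sulphate at 50 µM at 3 h in sporulation medium, while sample titles read 4 h. IAA and DMSO samples carry 1 protocol text. The labels do not say what drives the ligase, whether each strain is 1 clone, or whether the 3 libraries of a group came from separate cultures, so that p-values measure only the spread between these libraries.

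Library totals ran between 12.6 M and 28.3 M counts (M for mega), with a median of 20.7 M. Levels are CPM, counts-per-million on libraries scaled by the trimmed mean of M values. Before that scaling a count of 0 allowed a level of up to 0.106 to 0.238 CPM in a library, from 3 counts, which covers counting error only. Summed levels of 11 early meiotic genes such as IME1 and REC8 lay between 4694 and 25907 CPM in every library, and those of 8 haploid genes between 70.9 and 171 CPM. CUP1-1, the copper metallothionein, was higher with IAA than with DMSO in all 11 strains, by a log2 of 5.59 in XRN1 cells (limma, adjusted p = 8.12e-08) to 8.50 in POP2 cells (adjusted p = 6.06e-11), so that auxin and copper cannot be told apart in an IAA comparison. Its DMSO level was 63.1 ± 97.7 CPM in XRN1 and 39.7 ± 38.7 CPM in RAT1 cells (SD, n = 3 each). In the other DMSO groups the mean lay between 5.92 CPM (POP2) and 12.8 CPM (LSM1). Libraries of XRN1 DMSO and RAT1 DMSO thus differed widely in CUP1-1, and the cause was not tested. A degron removes protein, so the transcript of the targeted gene is no check of the depletion.

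Ribosomes are made in the nucleolus, where a long precursor RNA is transcribed by RNA polymerase I, folded, modified, cut and coated with ribosomal proteins. Small nucleolar ribonucleoproteins (snoRNPs) guide the chemical marking of that precursor, the UTP complexes form the small subunit processome on its 5′ part, and a second set of factors, with GTPases and helicases, matures the large subunit. In growing yeast their genes form a regulon that is transcribed together when nutrients are rich and shut down on starvation, and sporulation medium is a starvation medium. Many of their promoters carry the PAC element, bound by Dot6 and Tod6, and the RRPE element, bound by Stb3.

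The 250 bases before each start codon were read from the RefSeq genome of assembly R64, and searched on both strands for GATGAG (the PAC core, CTCATC on the other strand) and AAAATTTT (the RRPE core, which reads the same on both strands). PAC was present in 48 of the 54 members, 88.9%, against 17% of the promoters of all 6007 nuclear protein-coding genes. RRPE was present in 41 members, 75.9%, against 8.66% of all promoters. Both stood in 37 members, 68.5%, against 4.08% of all promoters, and neither stood in 2 members, UTP22 and UTP30. Overlapping matches were each counted, and 22 members held more than 1 PAC, with up to 4 in DBP9. A match describes letters in this window and not a site in use.

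The following 6 promoter stretches show the range of arrangements among the members, from several PAC matches to none. Each runs 5′ to 3′ on the gene's own strand over the 200 bases that end 51 bases before the start codon. Capitals mark the PAC and RRPE matches.
NOP7: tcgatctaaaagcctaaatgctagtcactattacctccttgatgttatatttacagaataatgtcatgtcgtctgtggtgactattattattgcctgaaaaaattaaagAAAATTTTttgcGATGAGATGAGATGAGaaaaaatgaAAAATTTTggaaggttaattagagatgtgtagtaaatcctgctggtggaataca
NOP56: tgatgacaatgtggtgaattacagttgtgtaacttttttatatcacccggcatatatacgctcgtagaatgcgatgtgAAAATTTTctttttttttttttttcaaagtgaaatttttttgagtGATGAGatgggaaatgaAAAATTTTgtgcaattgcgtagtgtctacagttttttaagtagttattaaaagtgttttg
DBP9: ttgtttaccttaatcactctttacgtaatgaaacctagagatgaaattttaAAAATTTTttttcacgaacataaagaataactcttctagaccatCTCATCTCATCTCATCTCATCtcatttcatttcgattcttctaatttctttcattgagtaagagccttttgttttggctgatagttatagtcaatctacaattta
NOP6: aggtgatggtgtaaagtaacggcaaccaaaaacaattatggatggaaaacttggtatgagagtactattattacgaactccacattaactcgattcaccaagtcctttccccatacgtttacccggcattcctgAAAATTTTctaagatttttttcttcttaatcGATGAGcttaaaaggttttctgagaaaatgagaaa
NOP19: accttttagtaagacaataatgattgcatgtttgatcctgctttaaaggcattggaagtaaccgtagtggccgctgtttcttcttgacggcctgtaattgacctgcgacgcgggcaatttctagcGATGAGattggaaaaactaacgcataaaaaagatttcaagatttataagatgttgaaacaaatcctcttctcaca
UTP22: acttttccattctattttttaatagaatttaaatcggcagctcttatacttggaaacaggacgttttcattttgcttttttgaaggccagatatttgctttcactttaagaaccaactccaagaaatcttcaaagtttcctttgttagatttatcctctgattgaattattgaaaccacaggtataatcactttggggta
The stretches lie at chrVII:695167-695366 on the plus strand for NOP7, chrXII:545847-546046 on the plus strand for NOP56, chrXII:696881-697080 on the minus strand for DBP9, chrIV:78017-78216 on the minus strand for NOP6, chrVII:995389-995588 on the plus strand for NOP19 and chrVII:662108-662307 on the plus strand for UTP22. NOP7 and NOP56 have an RRPE on each side of PAC, DBP9 has a run of 4 overlapping PAC matches, NOP19 has PAC alone, and UTP22 has neither.

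**Figure D1:**
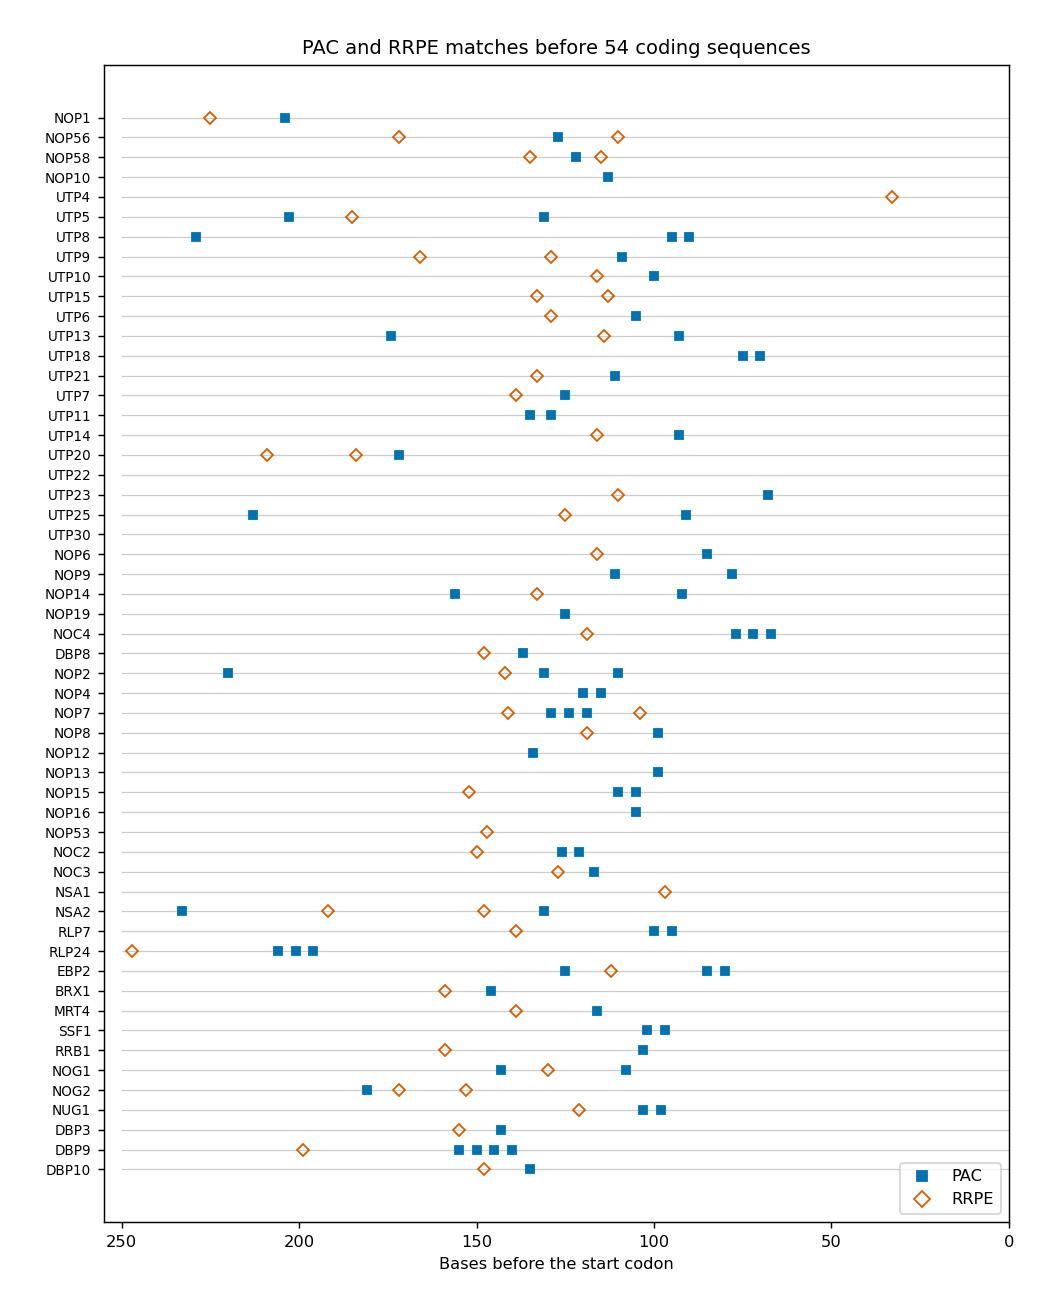
Positions of the 78 PAC and 49 RRPE matches in the members' promoters, as bases before the start codon on the horizontal axis, with 1 row per member and a colour per motif. The PAC matches lie between 67 and 233 bases before the start with a median of 118, and the RRPE matches between 33 and 247 with a median of 139.

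The plot of motif positions shows the order of PAC and RRPE. In 28 of the 37 members with both motifs, an RRPE lay farther from the start codon than the farthest PAC. The order was not counted in other promoters with both motifs, so it is not shown to be particular to the members. The matches were not tested for use, and their position was measured from the start codon because transcription starts were not used here.

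Levels between genes were compared as CPM per kb of coding length. In WT DMSO cells the highest were NOP16, a large subunit assembly factor, at 183 ± 9.88 CPM per kb (SD, n = 3), NOP1, the fibrillarin methyltransferase of box C/D snoRNPs, at 158 ± 87.1 CPM per kb, and NOP15, an RNA-binding large subunit factor, at 101 ± 28.0 CPM per kb. The lowest were UTP18 of the UTP-B complex at 14.3 ± 8.52 CPM per kb, UTP20, a very large small subunit processome protein, at 17.3 ± 3.51 CPM per kb, and UTP22 of the UTP-C complex at 17.7 ± 9.17 CPM per kb. The SD of NOP1 overlapped the level of NOP15 and of NOP16, and the 3 lowest members did not differ beyond their spread.

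Summed over the members, the level ran between 1771 and 9533 CPM over the 66 libraries, or 0.134% to 0.902% of the counts. The sum was 6198 ± 3853 CPM in LSM1 IAA libraries and 3909 ± 1134 CPM in LSM1 DMSO libraries (SD, n = 3 each). It was 3617 ± 1350 CPM in PAB1 IAA libraries and 2323 ± 478 CPM in PAB1 DMSO libraries, and 4306 ± 1810 CPM in WT IAA libraries and 4076 ± 1663 CPM in WT DMSO libraries. The ratios of the group means were 1.59 for LSM1, 1.56 for PAB1, 1.1 for RAT1 and 1.06 for WT, and lay between 0.859 and 1.01 for the other strains. In poly(A)-selected bulk RNA, fewer cells with a transcript and less of it per cell cannot be told apart. Nor can the amount of a transcript and its capture by the poly(A) tail, which bears on the strains of PAB1 and the deadenylase subunits. The scaling factors were 0.63 to 0.814 in PAB1 libraries and 0.915 to 1.17 in the others.

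**Figure D2:**
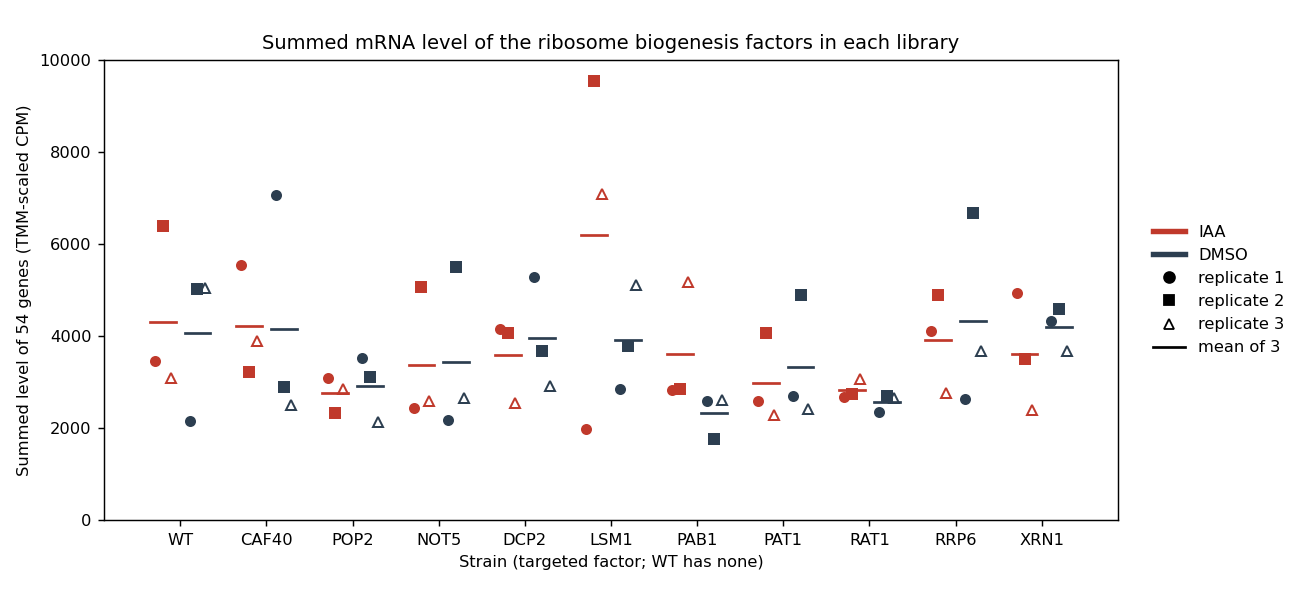
Summed CPM of the 54 members in each library, by strain on the horizontal axis, with 1 symbol per library shaped by replicate number, a line at the group mean, and IAA left of DMSO. The LSM1 IAA libraries span 1980 to 9533 CPM and the 3 RAT1 DMSO libraries 2354 to 2690 CPM.

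The sums of single libraries show where groups spread. The LSM1 IAA libraries had 1980, 9533 and 7080 CPM, against 2840, 3788 and 5099 CPM in LSM1 DMSO libraries. The WT IAA libraries had 3454, 6385 and 3080 CPM, against 2156, 5024 and 5047 CPM in WT DMSO libraries. In both strains the groups overlapped, with LSM1 IAA replicate 1 and WT DMSO replicate 1 the lowest of their groups. The highest library of a group exceeded the lowest by 1.14-fold to 4.81-fold, over the 22 groups.

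Spread between libraries of 1 group was larger for the members than for most genes. The SD of log2(CPM + 0.5) within groups, pooled over the 22 groups, had a median of 0.58 over the members, with a range of 0.19 to 0.86, against 0.22 over all genes tested. It exceeded the median of all genes for 52 of the 54 members and 0.5 for 33 members, against 8% of all genes. The spread differed by role. It had a median of 0.77 over the 4 snoRNP members, 0.66 over the 6 UTP-A members (the complex that binds the precursor first) and 0.65 over the 4 UTP-B members. It was lower over the 14 other small subunit members, at 0.44, with 0.57 over the 20 large subunit assembly members and 0.53 over the 6 GTPases and helicases. The most variable were NOP58, a box C/D core protein, and NOG2, a GTPase of the large subunit, at 0.86 each, NOG2 with the snoRNA gene SNR191 in its intron. The least variable were NOP19 at 0.19, NOP16 at 0.20 and UTP30 at 0.30, all assembly factors.

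Other lists had medians on both sides of the members. The median was 1.25 over the middle meiotic genes and 0.17 over the growth regulators. It was 0.52 over the cytoplasmic ribosomal proteins, 0.48 over the other small subunit factors, 0.50 over the other large subunit factors, 0.48 over stress genes, 0.36 over RNA polymerase I genes, 0.31 over early meiotic genes, 0.29 over RNA polymerase III genes and 0.28 over haploid genes. Among the members, the 37 with both motifs had a median of 0.60, with a range of 0.35 to 0.86, and the 17 without both had 0.47, with a range of 0.19 to 0.69. These are descriptions of 1 set of libraries, and no test was run between the sets.

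**Figure D3:**
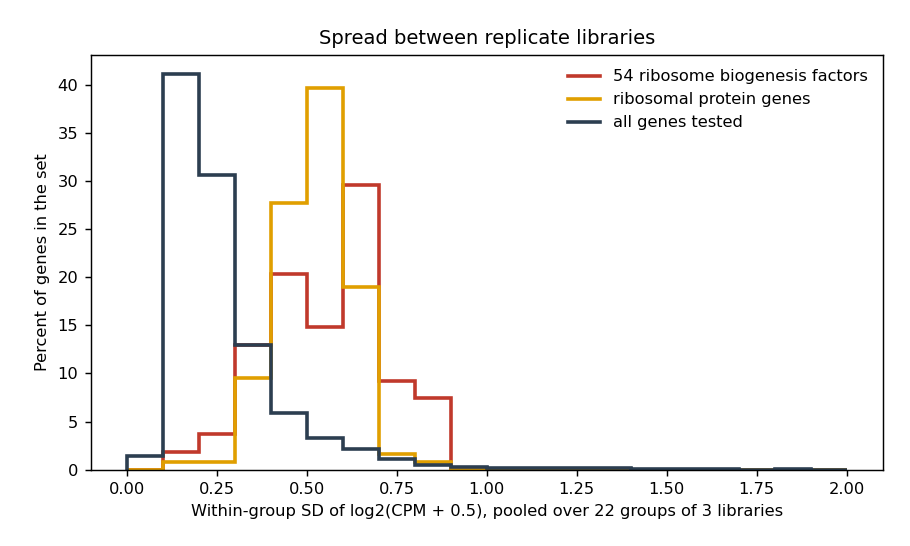
Percent of the genes in a set on the vertical axis by their within-group SD of log2(CPM + 0.5), pooled over 22 groups, on the horizontal axis, as a stepped line for the 54 members, the cytoplasmic ribosomal proteins and all genes tested. The members' median is 0.58, right of the 0.22 of all genes.

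The members moved together between libraries of a group. The library with the highest summed member level was the highest for a median of 51.5 of the 54 members over the 22 groups, with a range of 24 to 54, and held the highest value of 24% to 45.5% of all genes. In LSM1 IAA cells, replicate 2 was the highest and replicate 1 the lowest for all 54 members. In WT IAA cells, replicate 2 was the highest for all 54 members, and in WT DMSO cells, replicate 1 was the lowest for 53. The sum itself is made of these members, so the counts describe how many follow it.

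Other lists followed the same libraries to different degrees. The other ribosome assembly factors were highest in that library in 22 of 22 groups, RNA polymerase I genes in 19 and ribosomal proteins in 14. Early meiotic genes were lowest there in 12 groups, stress genes in 12 and middle meiotic genes in 4. Their part in the spread of the members was not tested.

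NOP56, a box C/D core protein, shows the size of the spread. It had 63.5, 559 and 365 CPM in LSM1 IAA libraries, against 112, 152 and 210 CPM in LSM1 DMSO libraries, and the groups overlapped because replicate 1 of the IAA group was the lowest of all 6. In WT cells it had 121, 263 and 101 CPM with IAA, against 52.7, 181 and 155 CPM with DMSO. The fitted change in LSM1 cells was a log2 of 0.62, and without replicate 2 of LSM1 IAA it was -0.01 (limma, adjusted p = 0.994). NOP16 stands at the other end, with 92.9, 105 and 90.1 CPM in WT IAA libraries, against 124, 122 and 135 CPM in WT DMSO libraries, without overlap, and its log2 change of -0.41 did not pass the test (limma, adjusted p = 0.187).

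**Figure D4:**
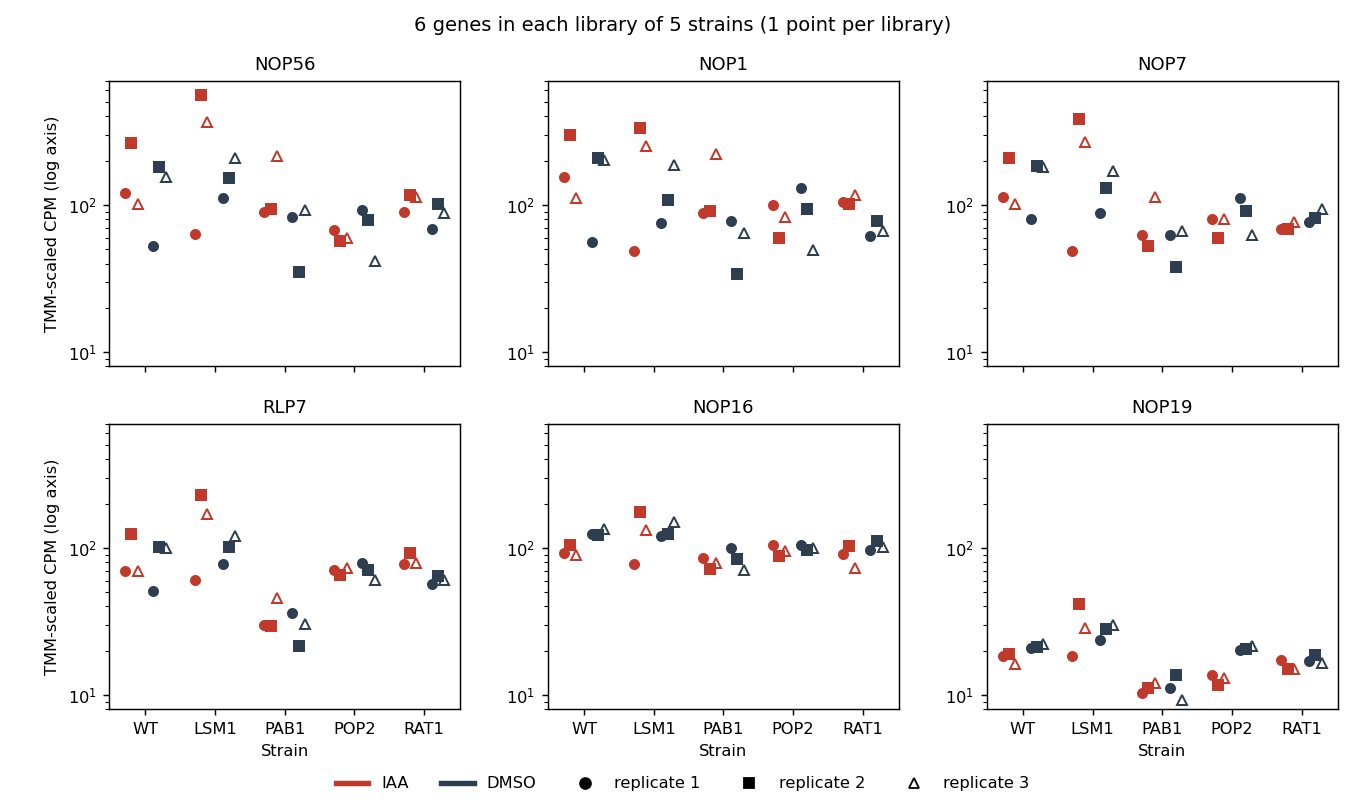
CPM of 6 members on a log vertical axis by strain, with 1 symbol per library, shaped by replicate number, and IAA left of DMSO. NOP56 spans 63.5 to 559 CPM within the LSM1 IAA group, while NOP16 stays between 90.1 and 105 CPM within the WT IAA group.

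To ask whether a tagged strain already differed before auxin, its DMSO libraries were set against those of WT. All 10 comparisons share the 3 WT DMSO libraries, whose replicate 1 is low for 53 of the 54 members. Members were called at an adjusted p under 0.05 in limma, adjusted over 5828 genes.

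In PAB1 DMSO cells 14 of the 54 members were lower than in WT DMSO cells and 0 were higher, where 23% of all genes tested were called lower. The share of members called lower was thus close to that of all genes, and the calls do not set the members apart. The median log2 change was -0.83 over the members, with 52 negative, against -0.05 over all genes. Of the 14, 10 were among the 20 large subunit assembly members, 3 among the 14 other small subunit members and 1 among the 4 snoRNP members, while no UTP-A, UTP-B, GTPase or helicase member was called.

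RLP7, a large subunit factor that resembles a ribosomal protein, had 36.0, 21.6 and 30.6 CPM in PAB1 DMSO libraries, against 50.9, 101 and 100 CPM in WT DMSO libraries. All 3 PAB1 libraries were below all 3 WT libraries, and the log2 change was -1.48 ± 0.38 (SE, limma, adjusted p = 0.00149). NOP13, an RNA-binding nucleolar protein, had 15.1, 9.71 and 17.7 CPM, against 28.6, 62.6 and 66.3 CPM in WT DMSO libraries, again without overlap, at -1.85 ± 0.54 (limma, adjusted p = 0.0049). NSA2, a large subunit factor, had 23.1, 10.4 and 20.1 CPM in PAB1 DMSO libraries, against 26.5, 68.4 and 71.9 CPM in WT DMSO libraries. The groups did not overlap, though replicate 1 of WT lay close to the PAB1 libraries, and the change was -1.59 ± 0.61 (limma, adjusted p = 0.0298).

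NOP7, which works with Erb1 and Ytm1 on the large subunit precursor, had 62.2, 38.1 and 66.1 CPM in PAB1 DMSO libraries, against 80.6, 185 and 180 CPM in WT DMSO libraries. Every PAB1 library was lower, and the log2 change was -1.37 ± 0.49 (limma, adjusted p = 0.0205). The members with little spread were lower as well. NOP19 had 11.2, 13.6 and 9.21 CPM, against 20.9, 21.3 and 22.1 CPM in WT DMSO libraries, with a log2 change of -0.93 ± 0.19 (limma, adjusted p = 1.08e-04). UTP30 had 14.0, 12.4 and 11.0 CPM, against 17.4, 28.9 and 26.4 CPM in WT DMSO libraries (log2 -0.93). Neither gene's groups overlapped. NOP16 had 99.5, 84.5 and 71.1 CPM, against 124, 122 and 135 CPM, with a log2 change of -0.59 ± 0.17 (limma, adjusted p = 0.00355).

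The other called members were EBP2 (log2 -1.31), NOP15 (-1.06), NOP6 (-0.88), NSA1 (-0.83), NOC3 (-0.82) and NOP10, the box H/ACA core protein (-0.79), and NOP53, which recruits the exosome through Mtr4, at 52.2 ± 10.3 CPM in PAB1 DMSO cells and 107 ± 30.2 CPM in WT DMSO cells (SD, n = 3 each). Among these, the groups of EBP2, NSA1, NOC3 and NOP10 overlapped, since WT DMSO replicate 1 lay within the PAB1 range. The GTPase NOG1 had 65.4, 34.6 and 63.7 CPM in PAB1 DMSO libraries, against 61.5, 241 and 228 CPM in WT DMSO libraries, and its log2 change of -1.52 did not pass the test (limma, adjusted p = 0.0541). The same held for NOP1 at -1.26 (limma, adjusted p = 0.111). UTP20 was at 0.33 (limma, adjusted p = 0.378), and at -0.07 when libraries were scaled by total counts. In 13 members, all lower, the 3 PAB1 libraries lay below the 3 WT libraries, where 25.4% of all genes did so. This share of the members, too, was close to that of all genes.

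The PAB1 count rested in part on single libraries. It was 29 without WT DMSO replicate 1, where 22.3% of all genes were called lower, 6 without WT DMSO replicate 2 (18.5%), 5 without WT DMSO replicate 3 (18.6%), 6 without PAB1 DMSO replicate 2 (23.1%) and 9 without PAB1 DMSO replicate 3 (17.2%). UTP30, NOP19, NOP13, NOP16 and RLP7 were called in each of the 6 fits that left out 1 library. Scaling by total counts moved the median of all genes by -0.40 and called 27 members lower, where 48.5% of all genes were.

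Other lists differed in the same comparison. Of the 126 cytoplasmic ribosomal proteins tested, 91 were lower and 0 higher in PAB1 DMSO cells, with a median log2 of -1.33, and their sum was 4670, 4695 and 4331 CPM against 6281, 13518 and 11391 CPM in WT DMSO libraries. Lower, too, were 15 of 43 other large subunit factors, with 1 higher (SSF2), and 14 of 43 other small subunit factors. GAR1, a box H/ACA core protein, was at -1.64 and IMP3 at -1.63. RNA polymerase I genes had 2 of 14 lower and RNA polymerase III genes 6 of 13, none higher in either. Of 9 growth regulators 4 were higher, among them the kinase SCH9 (log2 1.34), the ribosomal protein gene repressor CRF1 (0.95) and DOT6 (0.49).

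Meiotic and stress markers differed beside these. Early meiotic genes had 5 of 11 higher, with a sum of 24247 ± 1909 CPM in PAB1 DMSO cells and 17264 ± 1022 CPM in WT DMSO cells. Middle meiotic genes had 5 of 6 higher, with sums of 7028, 441 and 5297 CPM in PAB1 DMSO libraries and 408 ± 213 CPM in WT DMSO libraries. Stress genes had 4 of 6 higher, with 3212 ± 563 CPM in PAB1 DMSO cells and 992 ± 281 CPM in WT DMSO cells. Their part in the member changes was not tested.

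In LSM1 DMSO cells 1 member, NOP6, a small subunit processome protein, was higher than in WT DMSO cells, where 15.6% of all genes were called higher. It had 76.4, 90.5 and 105 CPM in LSM1 DMSO libraries, against 32.0, 54.1 and 60.0 CPM in WT DMSO libraries. All 3 LSM1 libraries were above all 3 WT libraries, with a log2 change of 0.93 (limma, adjusted p = 0.0102). The call was lost without WT DMSO replicate 1 (log2 0.66, adjusted p = 0.105) and without LSM1 DMSO replicate 3 (log2 0.82, adjusted p = 0.0536). The member median was -0.06, against -0.03 over all genes, and it lay between -0.51 and 0.16 when 1 library was left out, with the lowest value without WT DMSO replicate 1. Beside this near-zero median, 86 ribosomal protein genes were higher and 1 lower, with a median of 1.27. The large subunit factors RRP14 (0.79) and LOC1 (0.68) were higher, and the RNA polymerase I factors RRN11 (-1.22) and RRN6 (-1.01) were lower. Of 11 early meiotic genes 10 were lower, such as SPO11 (-1.59) and ZIP1 (-1.43), with a sum of 10074 ± 2914 CPM in LSM1 DMSO cells and 17264 ± 1022 CPM in WT DMSO cells (SD, n = 3 each). Of 6 middle meiotic genes 1 was lower (NDT80, -2.47), with sums of 74.9 ± 39.2 CPM in LSM1 DMSO cells and 408 ± 213 CPM in WT DMSO cells. Of 6 stress genes 2 were higher (HSP12, 1.60, and HSP26, 0.92), with sums of 2602 ± 1029 CPM in LSM1 DMSO cells and 992 ± 281 CPM in WT DMSO cells. Their part in the NOP6 value was not tested. NOP6 is the member whose 2 calls differ in sign, since in PAB1 DMSO libraries it had 31.3, 21.8 and 24.6 CPM.

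In POP2 DMSO cells 1 member, NOP8, a large subunit assembly factor, was lower, where 12.9% of all genes were called lower. It had 61.5, 45.7 and 40.4 CPM in POP2 DMSO libraries, against 61.4, 98.2 and 95.8 CPM in WT DMSO libraries, so that the highest POP2 library just overlapped the lowest WT library. The log2 change was -0.79 (limma, adjusted p = 0.0378). The call was lost without WT DMSO replicate 2 (adjusted p = 0.145), WT DMSO replicate 3 (0.133), POP2 DMSO replicate 2 (0.104) or POP2 DMSO replicate 3 (0.158), with total-count scaling (0.0608) or no filter on low counts (0.0532), and when only the groups compared were fitted (0.0537). The member median was -0.35, with 47 of 54 negative. It was -0.71 without WT DMSO replicate 1, -0.13 without WT DMSO replicate 2, -0.11 without WT DMSO replicate 3 and -0.14 without POP2 DMSO replicate 3. Of 11 early meiotic genes 8 were lower, such as SPO11 (-1.56), with a sum of 11049 ± 1894 CPM in POP2 DMSO cells and 17264 ± 1022 CPM in WT DMSO cells. NDT80 was the 1 of 6 middle meiotic genes that was lower (-2.54), with sums of 58.8 ± 34 CPM in POP2 DMSO cells and 408 ± 213 CPM in WT DMSO cells, and HSP104 the 1 of 6 stress genes that was higher (1.12), with sums of 1828 ± 228 CPM in POP2 DMSO cells and 992 ± 281 CPM in WT DMSO cells. Their part in the NOP8 value was not tested.

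No member was called in the other 7 strains. The share of all genes called was 0.0515% in CAF40, PAT1 and XRN1, 0.103% in DCP2, 0.172% in NOT5, 0.755% in RAT1 and 0.824% in RRP6 (limma, either direction). At an unadjusted p under 0.05, 3 members were lower in RAT1 DMSO cells and 1 in PAT1 DMSO cells. In RAT1 DMSO cells all 54 members were negative with a median of -0.58, which was -1.02 without WT DMSO replicate 1 and -0.34 without WT DMSO replicate 2 or 3. NOT5 and PAT1 each had 51 of 54 negative at a median of -0.26, and XRN1 had 49 of 54 positive at 0.14. These medians rested on single libraries. Leaving out WT DMSO replicate 1 gave -0.68 in NOT5, -0.67 in PAT1 and -0.28 in XRN1, and leaving out WT DMSO replicate 3 gave -0.04 in NOT5, -0.03 in PAT1 and 0.34 in XRN1. Without WT DMSO replicate 2 the values were -0.05 in NOT5, -0.05 in PAT1 and 0.35 in XRN1. Leaving out replicates 1, 2 and 3 of the strain's own DMSO libraries in turn gave -0.00, -0.67 and -0.11 in NOT5 and -0.13, -0.54 and -0.05 in PAT1. In XRN1 it was 0.08 without XRN1 DMSO replicate 2 and 0.24 without replicate 3. All these share the WT DMSO libraries, so the directions are not independent of each other.

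**Figure D5:**
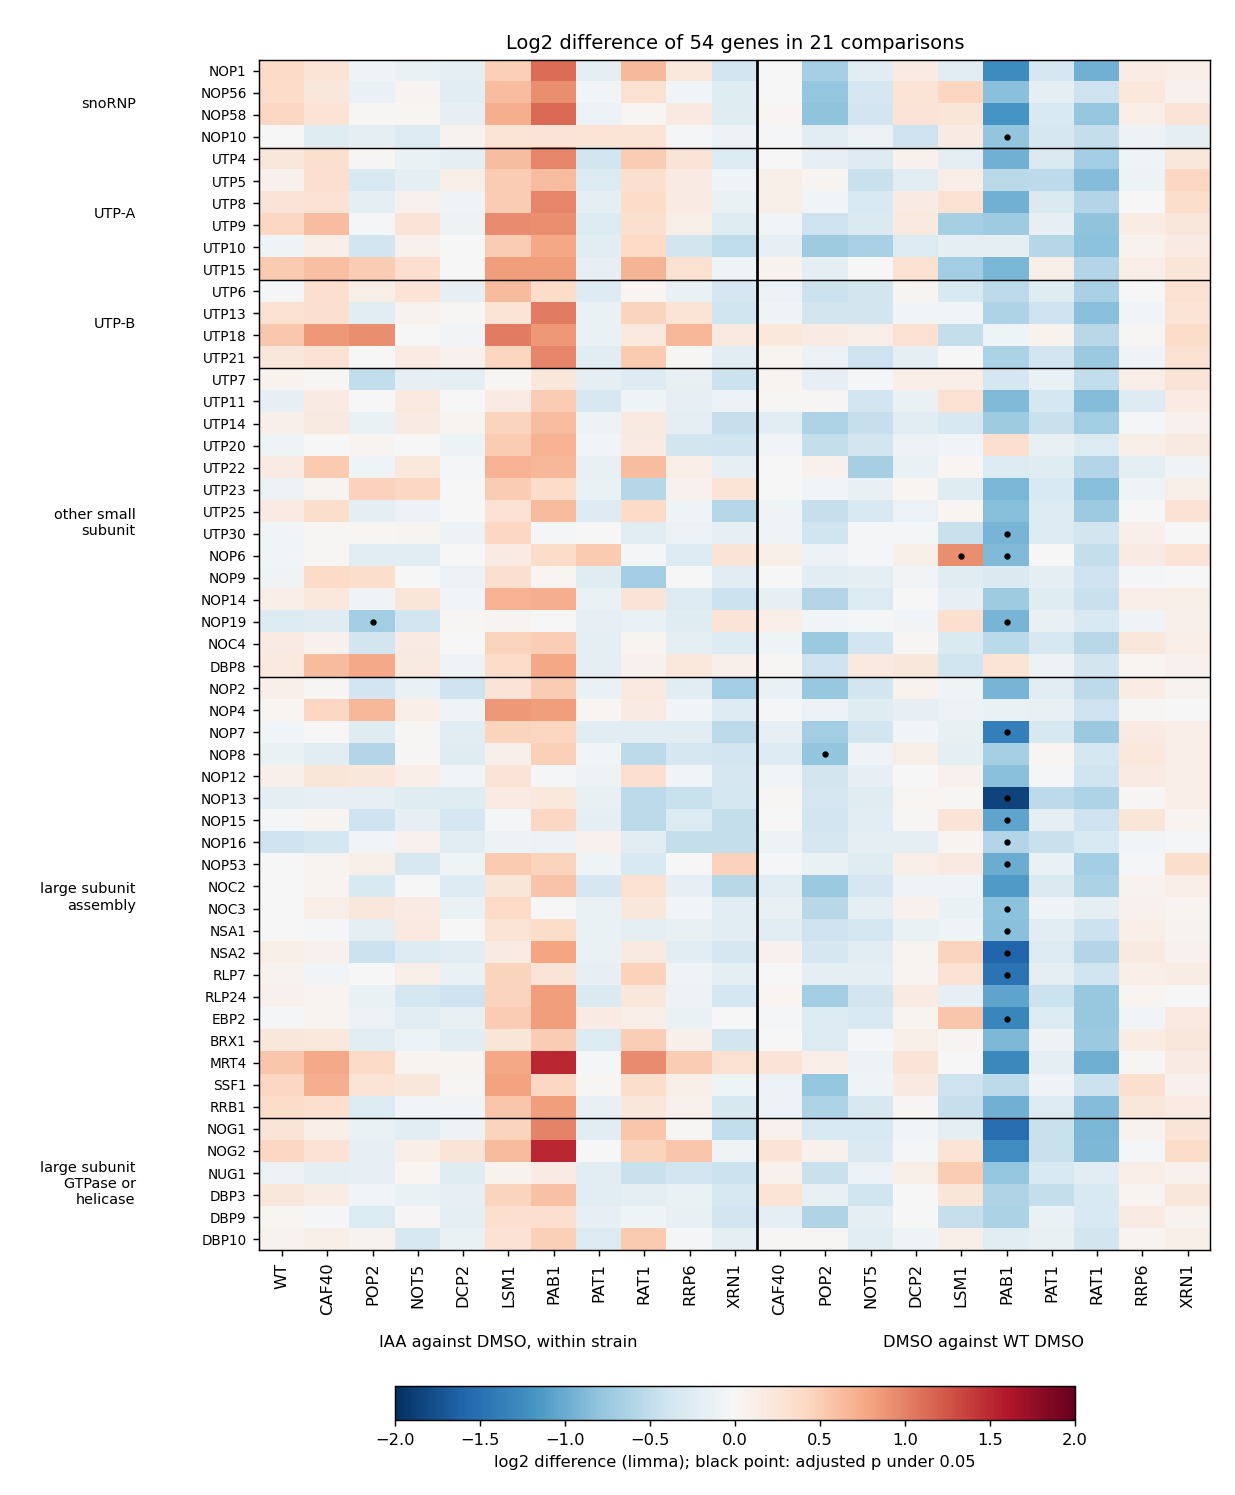
Fitted log2 change of each member, 1 row per member by role, in the 11 IAA against DMSO comparisons and the 10 DMSO against WT DMSO comparisons, with a colour scale in log2 units and a black point on each value with an adjusted p under 0.05. The PAB1 DMSO column holds 14 points, and 39 members have no point in any column.

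IAA was then compared with DMSO within each strain, the comparison meant to remove the targeted protein. Of the 54 members, 1 was called over the 11 strains. NOP19, a small subunit processome protein, was lower in POP2 IAA cells, where 19.5% of all genes were called lower. It had 13.6, 11.7 and 13.1 CPM in POP2 IAA libraries, against 20.3, 20.4 and 21.5 CPM in POP2 DMSO libraries. The groups did not overlap, and the log2 change was -0.70 ± 0.18 (SE, limma, adjusted p = 0.00134), which kept its call in each of the 6 fits that left out 1 library.

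The POP2 median over the members was -0.12, against -0.06 over all genes, and it lay between -0.31 and 0.07 when 1 library was left out. It was above 0 without POP2 IAA replicate 2 (0.06) or POP2 DMSO replicate 1 (0.07), -0.20 without POP2 IAA replicate 1, -0.01 without POP2 DMSO replicate 2 and -0.31 without POP2 DMSO replicate 3. NOP8 had 43.6, 23.3 and 32.6 CPM in POP2 IAA libraries, against 61.5, 45.7 and 40.4 CPM in POP2 DMSO libraries, which overlapped. Of the companion genes, the large subunit factors MAK21 (log2 -0.77) and RSA3 (-0.43) and the small subunit factor BUD21 (-0.73) were lower and IPI1 (0.92) was higher. Early meiotic genes were lower in 10 of 11 in the same comparison, and that part in the change of NOP19 was not tested.

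In the other 10 strains limma called 0 members. The share of all genes called in either direction was 3.41% in WT, 7.81% in CAF40, 1.8% in DCP2, 18.5% in LSM1, 10.2% in NOT5, 22.2% in PAB1, 1.34% in PAT1, 20% in RAT1, 4.62% in RRP6 and 8.85% in XRN1. At an unadjusted p under 0.05, 3 members were higher in PAB1 and 1 in LSM1, 1 was lower in each of WT, CAF40, NOT5, RAT1, RRP6 and XRN1, and 0 in DCP2 and PAT1. The member median was -0.27 in XRN1 (47 of 54 negative), -0.16 in PAT1 (48 negative), -0.10 in DCP2 (44 negative) and -0.07 in RRP6 (34 negative). It was 0.15 in CAF40 (44 positive), 0.09 in WT (35 positive) and 0.03 in NOT5 (33 positive). With 1 library left out, the XRN1 median lay between -0.52 and -0.05, and the medians of PAT1, DCP2, RRP6, CAF40, WT and NOT5 took both signs. Calls also depended on pairing the libraries. Where libraries of the same number deviated together, a fit with the replicate as a block was made as well, and its values are given beside those without it.

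In LSM1 cells the median over the members was 0.44, with 52 of 54 positive, against 0.01 over all genes. It rested on single libraries, at 0.00 without LSM1 IAA replicate 2, 0.18 without LSM1 IAA replicate 3, 0.21 without LSM1 DMSO replicate 1 and 1.15 without LSM1 IAA replicate 1. With the block, 7 members were higher, where 17.3% of all genes were called higher, so that members were called no more often than other genes. NOP4, an RNA-binding large subunit factor, had 75.8, 200 and 146 CPM in LSM1 IAA libraries, against 52.4, 69.6 and 102 CPM in LSM1 DMSO libraries. The groups overlapped, and each IAA library was above the DMSO library of its number. Its log2 change was 0.87 with the block (limma, adjusted p = 0.00283) and 0.86 without it (adjusted p = 0.0809). UTP22 had 41.3, 178 and 125 CPM, against 46.3, 57.5 and 81.3 CPM, at 0.74 with the block (limma, adjusted p = 0.0292) and 0.70 without it (0.285). UTP9 of the UTP-A complex was at 1.06 with the block (limma, adjusted p = 0.0344) and 0.95 without it (0.215). The other 4 were SSF1, NOP14, UTP20 and UTP30. With the block their log2 changes were 0.99, 0.76, 0.48 and 0.47 (limma, adjusted p = 0.0414, 0.0475, 0.0462 and 0.0465). Without it they were 0.81, 0.69, 0.51 and 0.42 in the same gene order (adjusted p = 0.283, 0.323, 0.246 and 0.236). SSF1 has a near-identical copy, SSF2, so its counts are uncertain.

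Replicate 1 of LSM1 IAA carried the lowest value of all 54 members, and the LSM1 result changed without it. Then 27 members were higher, where 19.1% of all genes were called higher, and the median was 1.15 over the members and 0.03 over all genes. They were 5 of 6 UTP-A, 3 of 4 UTP-B, 9 of 14 other small subunit, 7 of 20 large subunit assembly and 3 of 6 GTPase and helicase members, and none of the 4 snoRNP members. UTP18 was at 1.81 (limma, adjusted p = 0.00922), UTP9 at 1.67 (0.0149) and NOP7 at 1.37 (0.0238). Since replicate 1 was the lowest of its group for every member, leaving it out raises each IAA mean by construction. These calls therefore show the weight of 1 library and are no support for a change. Without LSM1 DMSO replicate 3 the call was NOP4 alone (1.11, adjusted p = 0.0477). NOP7 had 48.5, 381 and 266 CPM in LSM1 IAA libraries, against 88.6, 131 and 169 CPM in LSM1 DMSO libraries, so that replicate 1 was below every DMSO library and the other two above them. The same libraries differed in other lists. Summed stress genes were at 14148, 3911 and 7438 CPM and ribosomal proteins at 17120, 68088 and 43799 CPM in LSM1 IAA libraries, against 3643, 1586 and 2577 CPM for stress genes and 19332, 20915 and 25570 CPM for ribosomal proteins in LSM1 DMSO libraries. The stress list holds CUP1-1, and stress genes summed to 3326 ± 314 CPM in WT IAA cells and 992 ± 281 CPM in WT DMSO cells. Early meiotic genes were lower in 9 of 11, such as REC8 (log2 -1.42) and IME2 (-1.23), with sums of 8634, 5537 and 4694 CPM in LSM1 IAA libraries and 7703, 13327 and 9193 CPM in LSM1 DMSO libraries. Their part in the member values was not tested.

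In PAB1 cells the median over the members was 0.58, with 49 of 54 positive, against -0.04 over all genes, and it was 0.27 without PAB1 IAA replicate 3. Scaling by total counts moved the median of all genes in this comparison by -0.21. With the block, 10 members were higher, where 15.4% of all genes were called higher, a share close to that of the members. UTP20 had 228, 251 and 304 CPM in PAB1 IAA libraries, against 143, 144 and 200 CPM in PAB1 DMSO libraries, without overlap, at a log2 of 0.70 with the block (limma, adjusted p = 0.00455) and 0.69 without it (adjusted p = 0.0993). NOP4 had 109, 143 and 124 CPM, against 76.4, 63.1 and 72.3 CPM, at 0.82 with the block (limma, adjusted p = 0.00329) and 0.83 without it (0.092). MRT4, a large subunit factor that resembles the stalk protein P0, had 22.3, 27.4 and 39.7 CPM, against 16.1, 7.19 and 8.99 CPM, at 1.45 with the block (limma, adjusted p = 0.036; 0.18 without it). All 3 genes were higher in every IAA library than in every DMSO library. DBP8, a small subunit helicase, UTP21, UTP13, NOP1, NOG2, NOP8 and EBP2 were the others called. Their log2 changes lay between 0.46 (NOP8) and 1.49 (NOG2) with the block, and their adjusted p without it between 0.108 (DBP8) and 0.276 (NOP8).

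In 21 members, all higher, the 3 PAB1 IAA libraries lay above the 3 PAB1 DMSO libraries, where 13.1% of all genes did so. NOP8 had 64.1, 59.8 and 97.5 CPM in PAB1 IAA libraries, against 57.4, 45.2 and 55.3 CPM in PAB1 DMSO libraries. EBP2 had 44.8, 51.2 and 73.4 CPM, against 43.8, 24.6 and 26.8 CPM in PAB1 DMSO libraries. For EBP2 the DMSO level was itself low, since WT DMSO libraries had 43.7, 101 and 101 CPM. NOP1 was at 58.5 ± 22.5 CPM in PAB1 DMSO cells and 155 ± 85.7 CPM in WT DMSO cells. MRT4 was at 10.8 ± 4.72 and 30.5 ± 18.6 CPM, and NOG2 at 12.2 ± 3.52 and 35.4 ± 23.1 CPM, in the same order. Of the members called with the block, UTP20 (162 ± 32.7 and 130 ± 26.3 CPM) and DBP8 (46.4 ± 5.24 and 40.8 ± 17.7 CPM) had the higher mean in PAB1 DMSO cells. Stress genes, with CUP1-1 among them, summed to 14811, 17382 and 9954 CPM in PAB1 IAA libraries and 3212 ± 563 CPM in PAB1 DMSO libraries. In untagged WT cells their sum was higher with IAA as well, at 3326 ± 314 CPM against 992 ± 281 CPM with DMSO. Early meiotic genes were lower in 4 of 11, with sums of 16324 ± 1716 CPM in PAB1 IAA cells and 24247 ± 1909 CPM in PAB1 DMSO cells (SD, n = 3 each). Their part in the member values was not tested.

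In RAT1 cells the fitted changes lay in both directions, 37 positive and 17 negative, with a median of 0.20. The median was 0.13 without RAT1 IAA replicate 3 and 0.09 without replicates 1 and 2 of RAT1 DMSO. With the block, the helicase DBP10 was higher and NOP9 and NOP8 lower, where 33.6% of all genes were called in either direction. Members were thus called less often than genes in general. NOP9, an RNA-binding Pumilio-like protein, had 24.8, 30.9 and 31.1 CPM in RAT1 IAA libraries, against 49.0, 46.0 and 45.0 CPM in RAT1 DMSO libraries. The groups did not overlap, and the log2 change was -0.69 with the block (limma, adjusted p = 0.00767; 0.09 without it). NOP8 had 52.1, 37.6 and 49.2 CPM, against 69.0, 59.3 and 68.6 CPM, at -0.51 (limma, adjusted p = 0.0112 with the block; 0.228 without it). DBP10 had 75.2, 73.3 and 85.1 CPM, against 53.9, 53.4 and 54.9 CPM, at 0.52 with the block (limma, adjusted p = 0.0408) and 0.52 without it (0.306). Of all members, 14 were higher in every RAT1 IAA library than in every DMSO library, where 16.3% of all genes were so, and 5 lower, where 19.3% were.

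Among the strains whose libraries paired, the remaining calls with the block were of NOP16 and NOP19, in 3 strains. NOP19 was lower in NOT5 IAA cells, where 10.9% of all genes were called lower, with 18.4, 16.2 and 14.2 CPM against 21.2, 23.0 and 19.5 CPM in NOT5 DMSO libraries. Its log2 change was -0.39 (limma, adjusted p = 0.0411 with the block; 0.148 without it). NOP16 was lower in RRP6 IAA cells, where 7.64% of all genes were called lower, at 109, 83.4 and 73.3 CPM against 115, 127 and 124 CPM in RRP6 DMSO libraries. It was lower in XRN1 IAA cells, where 12% of all genes were, at 101, 88.5 and 79.1 CPM against 125, 125 and 124 CPM in XRN1 DMSO libraries. The changes were -0.48 in both, with adjusted p = 0.0212 in RRP6 and 0.0117 in XRN1 (limma with the block; 0.0884 and 0.0548 without it). None of these groups overlapped. Without RRP6 IAA replicate 1 and without the block, NOP16 was also called lower in RRP6 IAA cells (log2 -0.64, limma, adjusted p = 0.0423). Over the strains, the NOP16 change was negative in 9 of 11 and that of NOP19 in 8 of 11. WT cells, with no tagged target, were among them. There NOP16 was at -0.41 with the block (limma, adjusted p = 0.046), where 469 of 5828 genes were called lower. It was not called without the block, and WT libraries did not pair. NOP19 was at 17.9 ± 1.49 CPM in WT IAA cells and 21.4 ± 0.62 CPM in WT DMSO cells (SD, n = 3 each).

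An interaction term asked whether a strain responded to IAA otherwise than WT did, and all 10 such tests share the 6 WT libraries. No member was called in any of the 10. The share of all genes called was 0% in CAF40, DCP2 and XRN1, 0.0172% in RRP6, 0.0515% in PAT1, 0.326% in NOT5, 0.48% in LSM1, 1.37% in PAB1, 6.88% in RAT1 and 9.69% in POP2 (limma, either direction). At an unadjusted p under 0.05, 1 member was higher in each of NOT5, PAT1 and XRN1 and 0 were past it in the other 7. So neither the NOP19 change in POP2 cells nor the changes in LSM1 and PAB1 cells were shown to differ from those of WT.

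Over the 21 comparisons between 2 groups there were 17 calls without the block. NOP6 and NOP19 had 2 each, 13 members had 1, and 39 had none. Among those with none were NOP1, NOP56, NOP58, all UTP-A and UTP-B members, and the GTPases NOG1 and NOG2. The within-group SD was 0.86 for NOP58 and NOG2 and 0.80 for NOP1 and NOG1, the top of the members' range. The members with the lowest SD, NOP19, NOP16 and UTP30, were all called in at least 1 comparison.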

How the data were processed

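Transcript levels were measured in 66 libraries of 22 groups. The table deposited by the authors holds raw counts per gene under label lines, and its sample columns also hold 72 lines of principal component scores, which were left out with 6 columns of other samples; the columns taken whole are therefore of another unit than counts. Per the submitters' processing notes, STAR 2.7.10a, RSEM 1.3.1 and DESeq2 1.48.1 are named, with no role given; the build, annotation and strand setting are not given in the sources used here. Groups come from the sample titles and treatments. Members were matched by locus tag to R64 symbols, as were 5626 of 6171 IDs (91.2%). Genes with 0.484 CPM in at least 3 libraries and 15 counts in total were kept, 5828 genes (343 left out). Libraries were scaled by a hand-written trimmed mean of M values (trims 0.3 and 0.05, factors 0.63 to 1.17), and tested with limma 3.58.1 (voom, pseudocount 0.5) in R 4.3.3, with 1 mean per group over all libraries and Benjamini-Hochberg adjustment over all genes. Tables and figures were made with Python 3.11.15. The fit was run on simulated data in which genes varied independently at a fixed dispersion. That is no check for genes that spread as widely and move together as the members do. Replicates differed beyond counting noise (chi-square per degree of freedom 19.9 to 1070), so none was merged.

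The IAA and DMSO libraries of 1 number were treated as paired where the correlation of their deviations from the group means was over 0.1 for all 3 numbers: in DCP2, LSM1, NOT5, PAB1, PAT1, RAT1, RRP6 and XRN1, and for LSM1 DMSO against WT DMSO (0.142 to 0.321). The pairing comes from these data, since the labels do not say what a number marks. It is weaker in LSM1 and RRP6, where 2 of 3 IAA libraries correlated best with the DMSO library of their own number. LSM1 replicate 2 had 0.163 with its own and up to 0.209 with another, and RRP6 replicate 3 had 0.262 and 0.311. Alternatives were other scalings, no filter, no voom weights, only the groups compared, the replicate block, and each library left out. Genes named were, per comparison, up to 4 called members with the largest change in each direction at 10 CPM or more, a list of members of each role, the most and least called, the 3 highest and lowest per kb, and up to 2 called genes per companion list and direction; all others named were chosen after their values were seen. The members, lists and rules were chosen with earlier results of these data known.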

Additional observations from a re-analysis of the deposited data

How the results depend on the processing

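With the replicate as a block, the members called for IAA against DMSO numbered 1 in WT (NOP16), 7 in LSM1, 1 in NOT5, 10 in PAB1, 5 in POP2, 3 in RAT1, 1 in RRP6 and 1 in XRN1. Over all 5828 genes, the block called 807 in WT and 2932 in POP2, and the shares for the other strains stand above. WT, POP2 and CAF40 are not paired by the check, so there the block shows only a shared number. Unpaired too is PAB1 DMSO against WT DMSO, where the block called 19 members lower and 1438 of 5756 genes lower. For DMSO against WT DMSO the block was a separate fit of the DMSO libraries alone. Its replicate terms were shared by all strains, so it does not pair a single strain with WT. In LSM1 DMSO, which is paired, the block left 1 call, where 1118 of 5756 genes were called higher. The block changed no member call beyond WT. Fitting only the groups compared gave 1 call in PAB1, 3 in POP2 and 7 in RAT1 for IAA. Median-of-ratios scaling and no filter each gave 1 in XRN1 IAA. The shares of all genes called in these fits are not given here, so the counts do not set members against other genes. For PAB1 DMSO, total-count scaling gave 27; for POP2 DMSO, total-count scaling and no filter each gave 0. Leaving out 1 library at a time gave 0 to 27 calls for LSM1 IAA, 0 to 1 for RRP6 IAA, LSM1 DMSO and POP2 DMSO, and 5 to 29 for PAB1 DMSO. The 27 came without LSM1 IAA replicate 1, and 1 (NOP4) without LSM1 DMSO replicate 3; the RRP6 call (NOP16, log2 -0.64) came without RRP6 IAA replicate 1. Leaving out replicates 1 and 2 of RAT1 DMSO left 0 calls. Reversed were UTP20 in PAB1 DMSO, -0.07 with total-count scaling, and NOP56 in LSM1 IAA, between -0.01 (without LSM1 IAA replicate 2) and 1.58 over the left-out libraries. The cause of these shifts was not tested. With 3 libraries per group, precision follows the spread between them, a within-group SD of 0.86 for NOP58 and of 0.19 for NOP19, and a member that did not pass the test is not shown to be unchanged.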

Other observations

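Regulators and polymerase genes that work beside the members also differed with IAA. MAF1, the repressor of RNA polymerase III, was lower in RAT1 IAA cells at 66.1 ± 2.97 CPM than in RAT1 DMSO cells at 142 ± 4.65 CPM (SD, n = 3 each; log2 -1.10, limma, adjusted p = 1.74e-11). It was also lower in POP2 IAA cells at 93.4 ± 8.82 CPM than in POP2 DMSO cells at 145 ± 4.7 CPM (SD, n = 3 each, log2 -0.64, limma, adjusted p = 5.68e-06), and in PAB1 IAA cells at 90 ± 2.03 CPM than in PAB1 DMSO cells at 140 ± 14.7 CPM (log2 -0.63, limma, adjusted p = 1.06e-05). In LSM1 cells MAF1 was at 176 ± 14 CPM with IAA and 243 ± 16.7 CPM with DMSO (log2 -0.46, limma, adjusted p = 0.00243). That LSM1 DMSO level was above WT DMSO cells at 148 ± 16.8 CPM (log2 0.72, limma, adjusted p = 5.05e-06). STB3, whose protein binds RRPE, was called lower in POP2, PAB1 and LSM1 and not in RAT1 IAA cells, at log2 -0.45, -0.38 and -0.44 for POP2, PAB1 and LSM1 (limma, adjusted p = 0.00171, 0.0113 and 0.00373). DOT6, whose protein binds PAC, was lower in POP2 IAA cells at 310 ± 16.1 CPM than in POP2 DMSO cells at 422 ± 7.83 CPM (log2 -0.45, limma, adjusted p = 0.00697). SCH9, a growth kinase, was higher in PAB1 IAA cells at 421 ± 37.1 CPM than in PAB1 DMSO cells at 272 ± 12.6 CPM (log2 0.62, limma, adjusted p = 0.0026).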
